A study of Drosophila melanogaster with 6 samples.

Results

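The transcripts described here were detected in control ovaries and lay below both the control and the wild-type ovary level in ovaries with ectopic expression of JAK/STAT and EGFR signaling components in the follicle cells (FCs). They were chosen on the deposited log2 ratios of ovary sample over wild-type reference. A probe was taken when its ectopic expression mean lay at least 1 below its control mean on the log2 scale, all 3 ectopic expression arrays lay below all 3 control arrays, the ectopic expression mean itself was -1 or less, and the ovary signal was well above background on all 3 control arrays. Of 32162 probes, 203 (0.631%) met these conditions, and they carry 183 of the 25857 transcript identifiers on the array. Because the same contrast chose the members, the size and direction of their decrease are given as a description, without a test.

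The Drosophila egg chamber is a germline cyst enclosed by a single layer of FCs. The JAK/STAT ligand Unpaired is secreted by the polar cells at each end of the egg chamber, and EGFR is activated at the posterior by the oocyte ligand Gurken, so that the posterior follicle cells (PFCs) receive both signals. FCs elsewhere take other fates. At later stages the FCs turn to making yolk proteins, vitelline membrane and chorion, and these are among the most abundant messages of the ovary.

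Control ovaries had the genotype GAL80TS/+ ; GR1-GAL4/TM6B, and ectopic expression ovaries carried UAS-Unpaired and UAS-λtorpedo, a constitutively active EGFR, in place of the TM6B balancer. GR1-GAL4 drives expression in the FCs and GAL80TS, present in both groups, keeps it off at 18°C. In both groups yeast-fed females, 5 to 8 days old, were moved to 29°C for 16 h before whole ovaries were dissected, and ovary pairs of several females were pooled for each of 3 preparations per group. The common reference on every array was RNA of whole OreR ovaries, from females kept at 25°C without heat induction. The effect of the transgenes and that of losing the balancer cannot be told apart in this design. In whole ovaries, fewer cells of a type and less RNA per cell cannot be told apart either.

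The arrays were 2-color Agilent oligonucleotide arrays, with the ovary sample always in Cy5 and the reference always in Cy3. The methods state 6 arrays on 3 slides. In what follows, slide 1, 2 or 3 means the control and the ectopic expression array of that replicate number. The methods do not state which arrays shared a slide, so the word names this pair of arrays and not a known batch. Between 24449 and 33915 of 43602 spots were well above background in Cy5 on control arrays, with control replicate 3 the highest. In ectopic expression samples the number was between 23606 and 25205. Saturated spots numbered 0, and with 3 arrays per group the precision is limited. Most probes are listed by a transcript identifier alone, and 499 (1.55%) could be given a gene name. Of the 140 marker and pathway genes considered, 3 had a named probe and 0 of these were members, so the cell types of the ovary could not be checked by their markers.

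Over the 203 members, the median log2 ratio to the wild-type reference was -0.13, -0.24 and -0.11 on control replicates 1 to 3, and -2.18, -2.14 and -1.55 on ectopic expression replicates 1 to 3. The members thus sat near the wild-type level in control ovaries and well below it in ectopic expression ovaries, with ectopic expression replicate 3 the least reduced. The median log2 difference between the groups, ectopic expression minus control, was -1.78, a 3.43-fold decrease, against 0.00 over all probes. It ranged from -5.21 to -0.98, with a median standard error of 0.19. For the log ratio computed by the scanner software the median was -2.78. In a limma fit over all probes, 201 of the 203 members were at least 2-fold lower with an adjusted P-value under 0.05, where 0.824% of all probes were called lower. The rule used that contrast, so nothing is read from this count. The 64 other probes called lower all had an ectopic expression mean above -1 in the deposited ratios.

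**Figure D1:**
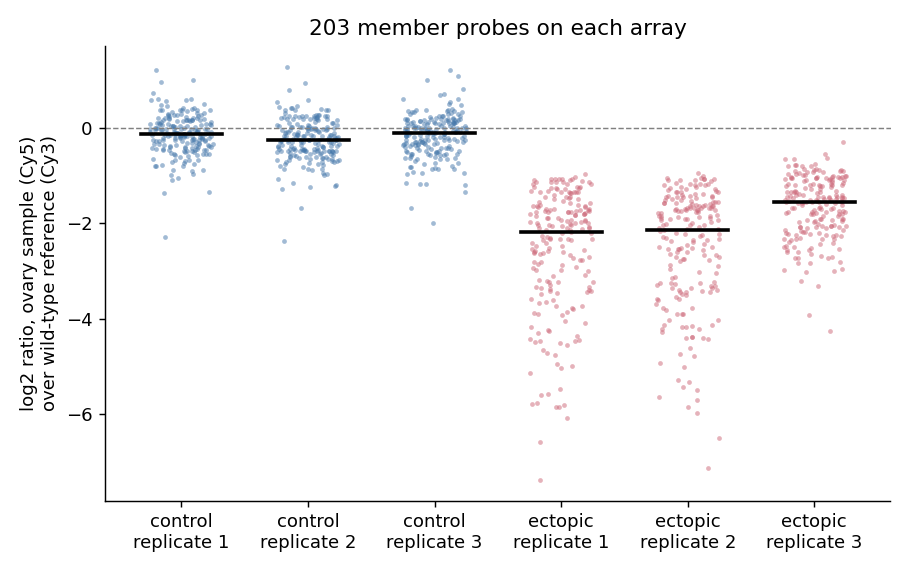
Log2 ratio of ovary sample over wild-type reference (y axis) of the 203 members on each of the 6 arrays (x axis). Each point is a probe and each black bar the median of that array, which lies between -0.24 and -0.11 on the control arrays and from -2.18 to -1.55 for ectopic expression ovaries.

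The members can be ordered by the size of the decrease, since few have a gene name. At least 16-fold lower were 15 members, a further 24 were between 8-fold and 16-fold lower, 49 between 4-fold and 8-fold lower and 115 less than 4-fold lower. Together, 88 members (43.4%) were lower by 4-fold or more. The rule took in nearly every large decrease on the array: the 39 probes with a log2 difference of -3 or less were all members, as were 88 of the 89 with -2 or less.

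The 10 lowest fitted differences among members still detected on at least 1 ectopic expression array were between -5.21 and -4.17. Probe A_09_P030176, for transcript FBtr0080216, had log2 ratios of -0.79, -0.64 and 0.01 on control replicates 1 to 3 and of -7.38, -7.14 and -2.53 on ectopic expression replicates 1 to 3. Its mean went from -0.48 ± 0.43 (SD, n = 3) to -5.69 ± 2.73 (SD, n = 3), a log2 difference of -5.21 (standard error 1.1). The groups were far apart, but ectopic expression replicate 3 lay between the controls and the other ectopic expression arrays, and the fold of 37.0 depends on how that array is weighed.

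Transcript FBtr0071419 (probe A_09_P010076) showed the lowest ectopic expression mean of any member. Its log2 ratios were -0.79, -1.67 and -1.33 in control ovaries and -6.58, -6.51 and -4.25 in ectopic expression ovaries, a log2 difference of -4.52 (standard error 0.56). This transcript was already below the wild-type reference on each control array. FBtr0070203 (A_09_P066701), by contrast, was slightly above the reference on each control array, at 0.28, 0.20 and 0.13, and reached -5.78, -5.33 and -2.35 in ectopic expression ovaries. Its log2 difference was -4.69 (standard error 0.74).

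The identifier FBtr0071201 is held by a pair of probes among the 10. Probe A_09_P047621 had log2 ratios of -0.16, -0.42 and -0.33 in control and -5.86, -5.84 and -3.21 in ectopic expression ovaries. Probe A_09_P030341 had -0.60, -0.63 and -0.64 in control and -5.59, -5.43 and -3.93 in ectopic expression ovaries. The ectopic expression arrays came in the same order on both probes, with log2 differences of -4.67 (standard error 0.61) and -4.36 (standard error 0.37). The other 5 of the 10, for FBtr0273329, FBtr0077009, FBtr0306927, FBtr0071145 and FBtr0073821, had log2 differences between -4.73 and -4.17, and on each of them ectopic expression replicate 3 was again the highest of its group. FBtr0306927 (A_09_P066036) was well above background on only 1 of the 3 ectopic expression arrays, and its log2 difference of -4.27 was -5.32 with a normexp offset of 0 and -6.72 for the scanner software log ratio. The latter is below the -5.39 that FBtr0080216 had under that setting, so the order of the largest decreases is not settled.

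Ectopic expression replicate 3 was the least reduced array for most of the set, but not for all of it. This array had the highest ratio of its group for 177 of the 203 members, and for each of the 39 members that were at least 8-fold lower. It had the lowest ratio of its group for 7 members. Within slides, where the control and the ectopic expression array share a replicate number, the median log2 difference was -2.07 on slide 1, -1.86 on slide 2 and -1.45 on slide 3, against 0.00, 0.00 and -0.01 over all probes. That each of the 203 members was lower on each slide follows from the rule, which put all ectopic expression arrays below all control arrays. At least 2-fold lower were 199, 195 and 170 members on slides 1, 2 and 3, against 1.06%, 1.56% and 0.709% of all probes. The rule also set the mean difference, so nothing is read from these counts.

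The gap between the slides widened with the size of the decrease. Among the 15 members lower by 16-fold or more, the ratio left in ectopic expression ovaries was a median of 2.19% of the control ratio on slide 1 (range 1.04% to 3.57%) and 3.18% on slide 2 (range 1.11% to 4.69%). On slide 3 it was 17.9% (range 10.2% to 26.6%), and this range did not overlap with those of slides 1 and 2. Each range runs over probes on 1 pair of arrays and gives no spread between arrays. The members were also grouped by the mean difference over these same slides, which can itself favor such a gap. Among the 115 members lower by less than 4-fold, the median ratio left was 35.0%, 37.7% and 45.4% on slides 1 to 3, with ranges that overlapped widely. Set against the mean of slides 1 and 2, the log2 difference on slide 3 was a median of 0.578 times as large for members lower by 4-fold or more and 0.794 times as large for the rest, and it was the larger one for 18 members. Without ectopic expression replicate 3, the number of members lower by 16-fold or more was 26, without replicate 1 it was 6 and without replicate 2 it was 7. The number lower by 8-fold or more, 39 with all arrays, was 25 without ectopic expression replicate 1, and the number lower by 4-fold or more stayed between 80 and 100. Whether ectopic expression replicate 3 differed in induction, in the makeup of the ovaries or in hybridization was not tested.

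**Figure D2:**
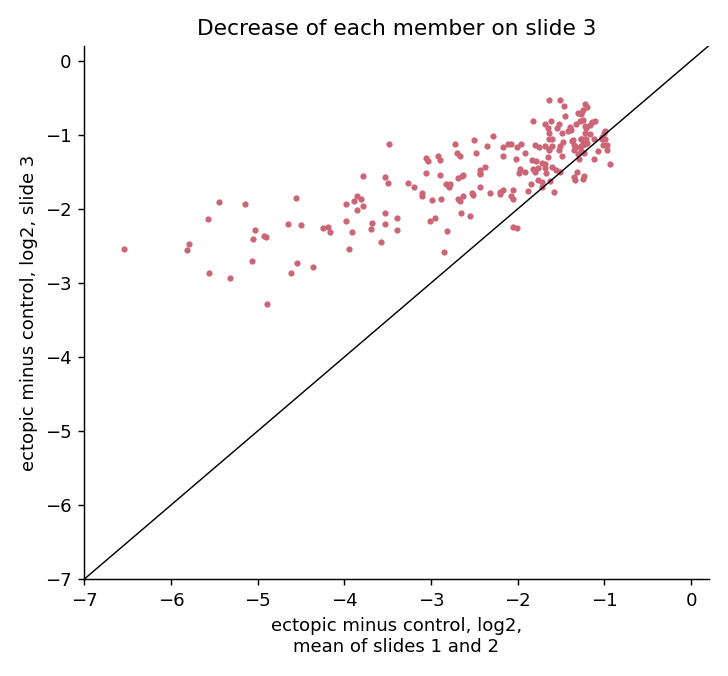
Log2 difference, ectopic expression minus control, of each of the 203 members on slide 3 (y axis) against its mean on slides 1 and 2 (x axis), with the line of equal values. Small decreases lie near the line, whereas the decreases on slide 3 do not go beyond -3.29 even where the mean of slides 1 and 2 is below -6.

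The choice of members was repeated on 2 slides at a time and the remaining slide was read, which no condition of the rule had used apart from the normalization shared by all arrays. Of 193 probes chosen without slide 1, 193 were lower on slide 1 and 188 (97.4%) were at least 2-fold lower there, with a median log2 difference of -2.21. Over all probes, 48.6% were lower on slide 1 and 1.06% at least 2-fold lower. Of 192 chosen without slide 2, 191 were lower on slide 2 and 181 (94.3%) at least 2-fold lower, with a median of -1.98, against 49.0% and 1.56% of all probes. Of 254 chosen without slide 3, 250 were lower on slide 3 but 171 (67.3%) were at least 2-fold lower, with a median of -1.25, against 50.1% and 0.709% of all probes. The direction was thus carried over to the unused slide in nearly all probes, and its size was smallest on slide 3. One exception stood out after its value was seen: probe A_09_P012336 (FBtr0073073), chosen on slides 1 and 2, had a log2 difference of 5.24 on slide 3, and it is not a member. Each unused slide holds 1 array per group, so these values carry no P-value.

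**Figure D3:**
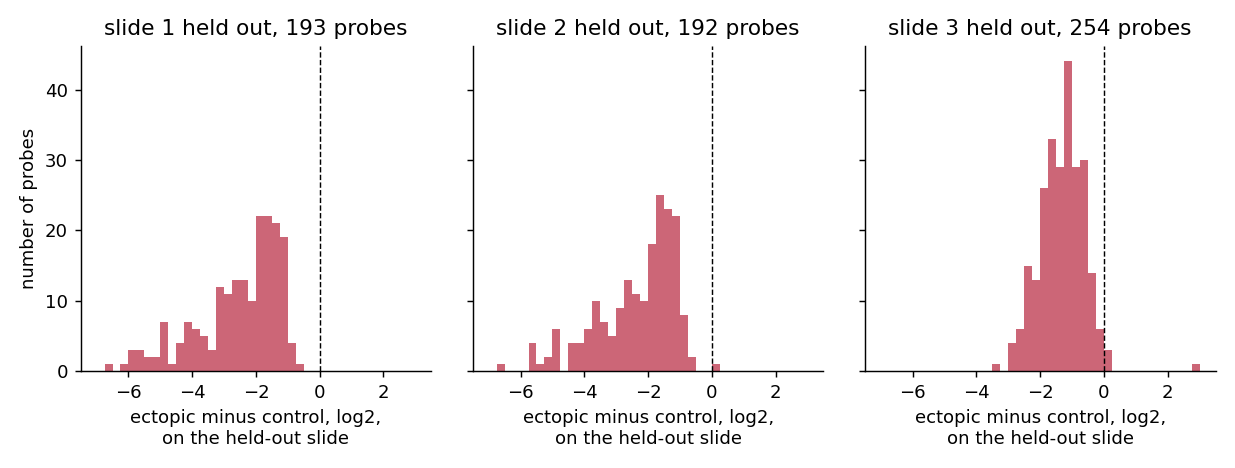
Number of probes (y axis) by their log2 difference, ectopic expression minus control, on the slide that was not used to choose them (x axis, bins of equal width). The panels hold 193, 192 and 254 probes for slides 1, 2 and 3, nearly all to the left of 0, and the value of 5.24 on slide 3 is drawn in the last bin.

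In control ovaries most members stood close to the wild-type level. The control mean was within 0.5 of the reference on the log2 scale for 161 members (79.3%), compared with 94.7% of all probes. It was below -0.5 for 35 members, against 2.81% of all probes, and above 0.5 for 7. The limit on the ectopic expression mean favors low control levels. The shares of all probes include those not detected in control ovaries. All 3 control arrays were below the reference for 101 members, all 3 above it for 43, and on both sides of it for 59. Shares over all probes are not given for these counts, so nothing is read from them. The highest control level was that of FBtr0075755 (A_09_P055806), with log2 ratios of 1.22, 1.29 and 1.21 in control ovaries and -2.52, -2.33 and -0.98 in ectopic expression ovaries. Its control level was more than 2-fold above the wild-type level. In ectopic expression ovaries it was well above background on replicate 3 only, so the ratios on replicates 1 and 2 are set by the background and give no exact size. The lowest was that of FBtr0082437 (A_09_P073971), with -2.28, -2.37 and -2.0 in control and -3.64, -3.25 and -3.31 in ectopic expression ovaries, so that this transcript was far below the wild-type level in both groups. In total 9 members had a control mean of -1 or less, a count given without the share over all probes.

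**Figure D4:**
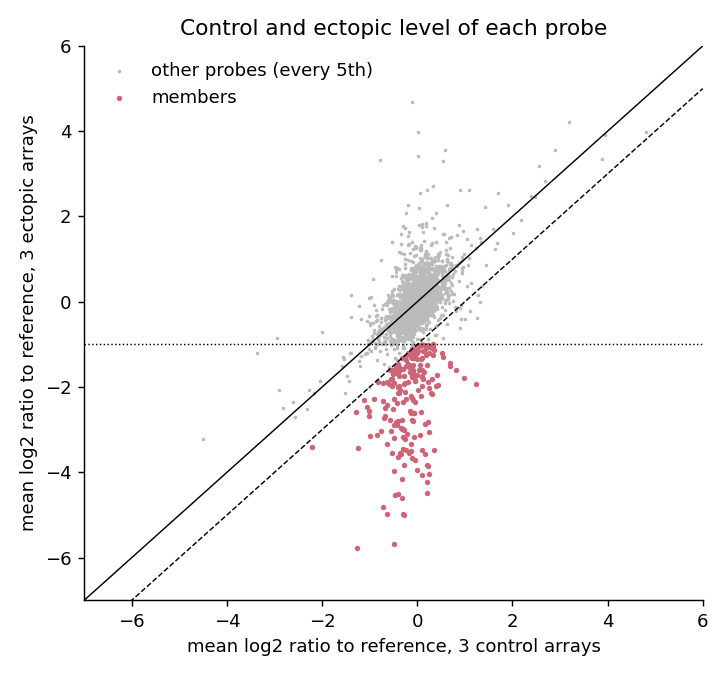
Mean log2 ratio to the wild-type reference in ectopic expression ovaries (y axis, 3 arrays) against control ovaries (x axis, 3 arrays), for the 203 members and for 1 in 5 of the other probes. The solid line marks equal values, the dashed line a difference of -1 and the dotted line an ectopic expression mean of -1, and the members fill the corner below both limits with control means from -2.22 to 1.24.

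Replicates of the members varied more than those of the array as a whole. The median SD over members was 0.16 in control and 0.39 in ectopic expression ovaries, against 0.09 and 0.10 over all probes. The comparison is not matched for signal, since every member but only 16325 of all probes were well above background on all control arrays. Control replicate 3 lay at least 0.4 above both other controls for 17 members, among them FBtr0080216, and at least 0.4 below both for 5. For 10 of the 17 the decrease was 4-fold or more. Control replicate 3 is also the array with the most spots above background, and the part of that in these values was not tested.

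The members were all detected in the wild-type reference, which does not show how far their ovary signal could fall. Their reference signal (Cy3) was well above background on all 6 arrays for each of the 203, and after background subtraction it ran from 61.5 to 72260 units, with a median of 585. These units are those of the probe. Signals of different probes do not order transcripts by abundance, since probes under 1 identifier also differed widely.

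In channel values normalized apart from the ratios, the reference channel barely moved between the groups, with a median log2 difference of -0.049 over members. In the ovary channel alone the median difference was -1.78. These values came from loess-normalized data, with average intensities given the same distribution on each array. They do not add up exactly to the ratios. In 8 members, however, the Cy3 value so normalized was between 0.57 and 0.96 higher on the log2 scale on ectopic expression arrays, although all arrays received the same reference. Over all probes 0.140% had a Cy3 difference that passed 0.5 in either direction. Of the 8, 7 lay at or above the 99.96th percentile of reference signal. For FBtr0079239 (A_09_P010006) the log2 difference was -2.73 as a ratio and -2.06 in the normalized Cy5 values. For FBtr0076574 (A_09_P041776) it was -4.03 and -3.54. How much of these gaps comes from the normalization was not tested.

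Of the members 4 could be named, and none of them is a protein-coding gene. Only 499 of 32162 probes could be named at all. Of the 4, 3 carry RefSeq accessions for noncoding RNA, which 274 probes of the array have. Nothing about the other members is read from this. The long noncoding RNA lncRNA:CR34046 (A_09_P001161, chromosome 3R) lies between CG42693 and ttk in the Release 6 annotation. The neighbor ttk encodes Tramtrack, a zinc finger repressor that FCs need late in oogenesis. The log2 ratios of lncRNA:CR34046 were 0.29, 0.26 and 0.22 in control ovaries and -1.24, -1.19 and -0.75 in ectopic expression ovaries, a difference of -1.32 (standard error 0.13). It was -2.27 with a normexp offset of 0 and -3.37 for the scanner software log ratio. The groups were separate on all arrays, but in ectopic expression ovaries the signal was well above background on only 1 of 3 arrays. A further probe of the same RNA, A_09_P218280, which is not a member, read 0.33, 0.26 and 0.42 in control and -0.88, -0.59 and -0.62 in ectopic expression ovaries, a difference of -1.03 (standard error 0.10). Both probes of this RNA thus lay above the wild-type level on every control array and below it on every ectopic expression array.

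CR31032 (A_09_P218240, chromosome 3R), annotated as a pseudogene between CG7824 and CG15514, had log2 ratios of -0.49, -0.27 and -0.56 in control and -1.61, -1.18 and -1.70 in ectopic expression ovaries. Its difference was -1.06 (standard error 0.14), and here ectopic expression replicate 3 was the lowest array, unlike in most members. Its other probe, A_09_P197445, read -0.53, -0.36 and -0.40 in control and -1.32, -1.32 and -1.46 in ectopic expression ovaries, a difference of -0.94 (standard error 0.08). The signal of a pseudogene probe can include its parent gene, which is not given by the sources used here.

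The antisense RNA asRNA:CR43463 (A_09_P172015, chromosome 2L) overlaps Pgant35A, which encodes an enzyme that starts O-linked glycosylation. It was below the wild-type level in both groups, at -0.75, -0.99 and -0.26 in control and -3.0, -2.90 and -2.09 in ectopic expression ovaries. With a standard error of 0.26, the difference of -2.0 was the largest of the named members, and it was -3.41 for the scanner software log ratio. The probe strand was not checked here, so signal from Pgant35A cannot be told apart from that of its antisense RNA. The long noncoding RNA lncRNA:CR43837 (A_09_P162875, chromosome X) lies between Inx7 and Inx2, which encode innexins, the gap junction proteins of insects. It had log2 ratios of -0.41, -0.01 and -0.18 in control and -1.12, -1.35 and -1.20 in ectopic expression ovaries, a difference of -1.03 (standard error 0.11), close to the limit of the rule.

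Where a transcript was covered by several member probes, each had passed the same rule, so their likeness is only described. For 19 identifiers 2 or more probes were members, 39 probes in all, and the range of the log2 differences within an identifier had a median of 0.31. The closest pair was that of FBtr0087437, at -1.61 and -1.59, and the widest that of FBtr0299996, at -3.04 and -1.40. Each of these identifiers also has a probe that is not a member. That probe had a difference of -0.94 for FBtr0087437 (A_09_P177575) and of -0.83 for FBtr0299996 (A_09_P194030). FBtr0077131 was the sole identifier with 3 member probes, which gave differences of -1.64 (A_09_P145455), -1.46 (A_09_P031176) and -1.23 (A_09_P222315). In the last of these the control log2 ratios were -0.32, -0.56 and -0.41 and the ectopic expression ones -1.81, -1.86 and -1.31. Spots of 1 probe printed more than once agreed more closely: over the 91 members with 2 or more spots the median range between spots was 0.06.

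A further 35 probes share one of 25 member identifiers without being members themselves. They ran on the same arrays and the rule has removed the strongest of them, so they are described without a test. Of the 35, 29 were lower in ectopic expression ovaries, where 51.0% of all probes were lower, with a median log2 difference of -0.28. For 19 the 3 ectopic expression arrays all lay below the 3 control arrays, where 13.6% of all probes did so. In the limma fit 14 (40%) passed the adjusted P-value threshold as lower, against 5.55% of all probes, and 5 (14.3%) were also at least 2-fold lower, against 0.824%. Without ectopic expression replicate 1 or control replicate 2 the count of 5 was 1, without ectopic expression replicate 2 or control replicate 1 or 3 it was 2, and without ectopic expression replicate 3 it was 7. Of the 5, 3 belong to FBtr0076454, whose member probe A_09_P194885 had a difference of -1.27 and whose other probes had -1.33, -1.25 and -1.22. That transcript was above the wild-type level in control ovaries on all 4 probes, and ectopic expression replicate 3 was the least reduced array on each.

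Other identifiers did not behave as 1 unit. For FBtr0082565 the member probe A_09_P101325 had a difference of -4.11 and the other probe, A_09_P074246, one of 0.02, but the latter was well above background on only 1 control array and had a reference signal of 7.88 units against 6916. For FBtr0076614 both further probes were well above background on all control arrays, with reference signals of 1003 and 1147 units against 789 for the member. Their differences were -0.02 (A_09_P050366) and 0.15 (A_09_P032071), whereas the member had -2.09. So in this case probes with a clear signal under the same identifier read no decrease, and whether they hit the same transcript was not tested. Over all 35 the median reference signal was 38.9 units, against 229 for the members they share an identifier with, and for the 25 detected on all control arrays the median difference was -0.69.

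**Figure D5:**
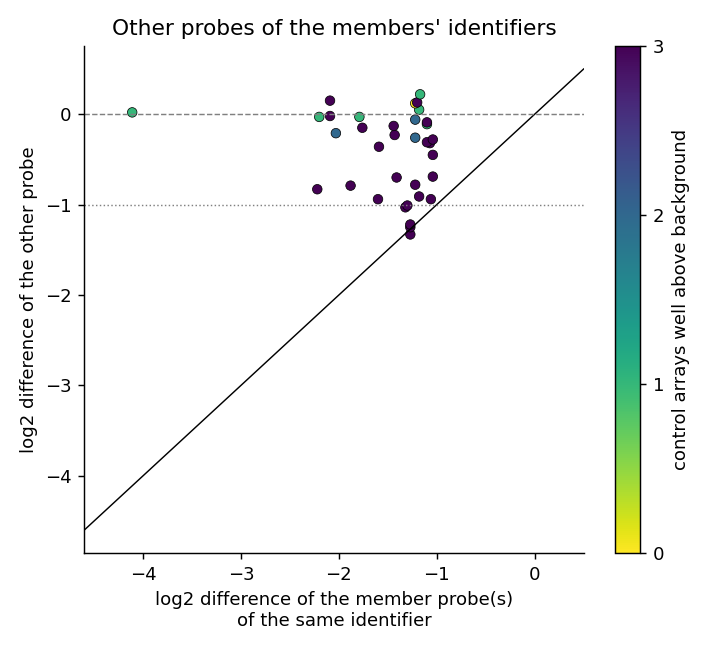
Log2 difference, ectopic expression minus control, of the 35 probes that share an identifier with a member (y axis) against that of the member probe or the mean of the member probes (x axis). The solid line marks equal values and the color the number of control arrays on which the other probe was well above background, and most points lie between the line and 0, with the 3 probes of FBtr0076454 on the line.

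Some members followed each other in transcript number. Of the 163 different FBtr numbers among the members, 29 (17.8%) had another member within 2 numbers, compared with 2.01% of the other FBtr numbers on the array, and they form 11 runs. FBtr0071201 to FBtr0071204 were all members, with 5 probes and log2 differences between -4.67 and -3.09. FBtr0076571 to FBtr0076574 were all members, with 4 probes and differences between -4.03 and -2.44. FBtr0079238 to FBtr0079241 were all members, with 5 probes and differences between -3.59 and -1.99. In these 3 runs the array holds no probe that is not a member, and their control means were between -0.63 and 0.36, near the wild-type level.

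Within the run from FBtr0076571, FBtr0076573 (A_09_P041786) had log2 ratios of 0.61, 0.27 and 0.19 in control and -4.25, -3.60 and -2.59 in ectopic expression ovaries. FBtr0076572 (A_09_P041771) had -0.28, -0.76 and -0.42 in control and -3.74, -4.27 and -1.55 in ectopic expression ovaries. FBtr0076571 (A_09_P041781) had -0.10, -0.37 and -0.83 in control and -3.09, -3.04 and -2.50 in ectopic expression ovaries. The 4 transcripts were thus reduced together but not by the same amount, and FBtr0076571 was the one with the smallest gap between ectopic expression replicates. The normalized Cy3 value of 3 of the 4 was among those that were higher on ectopic expression arrays. Neighboring transcript numbers can be isoforms of 1 gene or genes that lie side by side, and the sources used here do not settle which. Among the FBtr numbers that could be placed, 15 of 17 pairs within 100 numbers of each other lay on the same chromosome arm. Of these 17 pairs, 8 lay within 200 kb of each other, and pairs taken at random were not compared.

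Most members were reduced and not lost in ectopic expression ovaries. On all 3 ectopic expression arrays 166 of the 203 were still well above background, 12 on 2 arrays, 21 on 1 and 4 on none. For these last 4 only a bound can be given, in the Cy5 channel alone and not on the ratio scale used elsewhere, taken as the control mean against the lowest signal called well above background on each array. By Cy5 signal FBtr0080501 was at least 2.38-fold lower by A_09_P142055, where the log2 Cy5 means were 7.38 in control and 6.01 in ectopic expression ovaries, and at least 2.36-fold lower by A_09_P022651. FBtr0073939 (A_09_P038701) was at least 2.09-fold lower and FBtr0335509 (A_09_P138990) at least 2.06-fold lower.

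The members were mostly annotated transcripts. An FBtr identifier was carried by 183 members (90.1%) and by 67.2% of all probes, while 5 members (2.46%) and 14.4% of all probes carried a TC identifier. Members were detected in control ovaries by the rule, and the shares among detected probes are not given here.

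The edges of the rule run through a continuous range of values. On the deposited ratios the member nearest the limit on the difference was A_09_P166095 (FBtr0344279), at -1.0, and the nearest probe outside was A_09_P050126 (FBtr0082237), at -0.993. For the limit on the ectopic expression mean, A_09_P108050 (FI07764) was just inside at -1.01 and A_09_P059836 (FBtr0084137) just outside at -0.995. The limit on the difference alone kept out 143 probes and that on the ectopic expression mean 68, whereas the separation of the groups and the background flag kept out 0. The smallest gap between the groups among members was 0.260, for A_09_P184020.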

How the data were processed

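RNA of 3 control and 3 ectopic expression ovary preparations was hybridized with a common wild-type reference to 6 arrays. The authors deposited Feature Extraction 11.0.1.1 output with the median Cy5 and Cy3 intensity and local background of each spot, not normalized, background flags, and a log10 ratio made by the scanner software. The authors also deposited log2 ratios, which the methods describe as normexp corrected and as loess and quantile normalized in limma. Their rows follow the order of spots in the scanner output, and not the feature number, since the correlation in bright spots was between 0.988 and 0.992 by row order and near 0 by feature number. The deposited log2 ratios chose the members. All other values were computed from the deposited intensities.

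In R 4.3.3 with limma 3.58.1, a normexp correction was applied (offset 50, which the methods do not state), and between 106 and 123 flagged spots per array were left out. After loess and quantile normalization, spots of a probe were averaged. The ratios so obtained correlated with the deposited ones with r between 0.99971 and 0.99989. Groups were compared by limma with Benjamini-Hochberg adjustment over 32162 probes, and probes were called at 0.05 and 2-fold. The procedure was tested on simulated data. Differences are ectopic expression minus control. P-values test the group difference against the spread between arrays, with variances moderated over probes. Each array holds its own preparation of pooled ovaries, so preparation, labeling and hybridization are not separated in that spread. Gene names came from the RefSeq table of Release 6, looked up by symbol, clone name, accession or transcript identifier. The array design is older than this build, so no coordinates are given. Probe sequences were not analysed here.

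Named were every member with exactly 1 gene, the 10 lowest fitted differences detected on at least 1 ectopic expression array, members with only a bound, identifiers with 3 or more member probes and the probes at the limits of the rule. The other transcripts named were chosen after their values were seen. The members and gene lists were chosen with earlier results of these data known. Of the deposited ratios, 9 probes lacked a value on some array, 0 of them members.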

Additional observations from a re-analysis of the deposited data

How the results depend on the processing

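The decrease of the members kept its direction under each alternative run, which the rule largely fixed. All ectopic expression arrays of a member lie below all its control arrays in the deposited ratios, and the alternatives reuse these arrays. The median log2 difference was -2.29 with a normexp offset of 0 and -2.78 for the scanner software log ratio, against -1.78, and the cause was not tested. With the scanner software log ratio, 131 members were called lower and 426 probes met the rule, 203 of them members, while a stricter limit on the difference left 130 members. Not being well above background on a majority of the ectopic expression arrays, in place of all 3, held for 25 members. With 1 array left out in turn, members called lower were 182 to 199, their median difference -1.94 to -1.69, all probes called lower 234 to 328, probes meeting the rule 191 to 255, other probes of member identifiers called 1 to 7, and members lower by 4-fold 80 to 100, by 8-fold 25 to 52 and by 16-fold 6 to 26. The last 3 were chosen after seeing the data. With the replicate number as a block, 266 probes, 201 members and 5 other probes were called, and no count moved by more than 1.5 times. Arrays of the same number deviated together with r of 0.25, 0.00165 and 0.101, and for replicate 2 another number was closer. No pairing beyond the shared number is assumed. Of 294 values of 21 named probes under alternatives, 22 moved by more than 1 SD. These were 10 with an offset of 0 and 12 with the scanner software log ratio. The SD holds the spread between arrays, so the shift from leaving out 1 array can stay within it. FBtr0080216 (A_09_P030176) counted as not moved, although its -5.21 was -6.78 without ectopic expression replicate 3 and -4.36 without ectopic expression replicate 1. A value that did not move is thus not shown to be stable. Of the 294, 0 changed direction, which the rule largely fixed as well. Dim probes limit how large a decrease can be read.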
